A study of Mus musculus with 7 samples.

Results

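Genes of heme breakdown, iron storage and heme synthesis were followed in the mouse heart through 10 members, chosen by symbol from the 14641 genes of the count table. They were Hmox1, Hmox2, Blvra, Blvrb, Fth1, Ftl1, Slc40a1, Tfrc, Fech and Alas1. All 10 were found and all 10 passed the filter of a summed count above 1, which left 14637 genes for the test. RNA came from whole heart lysates of male C57BL/6J mice, with 4 non-transgenic hearts (NTG 1 to NTG 4) and 3 hearts carrying full-length mouse Nrf2 under the cardiomyocyte promoter αMHC (mNrf2-TG 17 to mNrf2-TG 19). The transgene is therefore driven in cardiomyocytes, while the lysate holds RNA of every cell type of the heart. The age is 6 months in the label of the transgenic animals, 7 to 8 months in the description of the series and 6 to 7 months in the methods. The 7 libraries held between 6534684 and 8405857 counts, and every level below is in normalized counts, which are counts scaled by edgeR's TMM factors to the mean effective library size.

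Heme is opened by the heme oxygenases Hmox1, the inducible form, and Hmox2, the constitutive form, which release iron, carbon monoxide and biliverdin. Biliverdin is then reduced to bilirubin by the biliverdin reductases Blvra and Blvrb, and the iron is stored in a shell of ferritin heavy (Fth1) and light (Ftl1) chains or leaves the cell through ferroportin (Slc40a1). Iron enters the cell with transferrin through the transferrin receptor (Tfrc), and it is put into new heme by a mitochondrial pathway that starts with Alas1 and ends with ferrochelatase (Fech). Nrf2 is a transcription factor known for driving antioxidant and heme and iron genes through antioxidant response elements, and iron itself controls several of the same genes after transcription, through stem-loops called iron responsive elements that are bound by the iron regulatory proteins.

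These stem-loops are shown because they separate the members into those known to be held back in translation when iron is low and the one whose mRNA is known to be stabilised then. A script searched the GENCODE M21 transcripts (build GRCm38) for an unpaired C, a stem of 5 base pairs and a loop of CAGTGN. Of 22527 coding genes, 0.14% held a match in the 5′ UTR and 0.64% in the 3′ UTR. Among the 10 members, Fth1, Ftl1 and Slc40a1 each held 1 match in the 5′ UTR, and Tfrc held 4 in the 3′ UTR. Hmox1, Hmox2, Blvra, Blvrb and Alas1 held none, and the outcome for Fech is not reported here. The capitals mark the unpaired C and the 6 bases of the loop, and each sequence is on the strand of its transcript.
Fth1, 5′ UTR, chr19:9982732-9982760, plus strand: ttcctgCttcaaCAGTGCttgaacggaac
Ftl1, 5′ UTR, chr7:45459779-45459807, minus strand: gtcttgCttcaaCAGTGTttgaacggaac
Slc40a1, 5′ UTR, chr1:45925465-45925493, minus strand: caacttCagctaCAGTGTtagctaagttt
Tfrc, 3′ UTR, chr16:32631219-32631247, plus strand: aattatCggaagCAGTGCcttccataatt
Tfrc, 3′ UTR, chr16:32631598-32631626, plus strand: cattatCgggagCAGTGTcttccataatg
Tfrc, 3′ UTR, chr16:32631663-32631691, plus strand: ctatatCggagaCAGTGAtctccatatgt
Tfrc, 3′ UTR, chr16:32631710-32631738, plus strand: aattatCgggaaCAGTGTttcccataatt
A match is a description of letters, and binding was not measured.

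Libraries were compared before the genes. Nfe2l2, the gene of Nrf2, was low in every NTG heart (729 to 1392 raw counts) and high in every mNrf2-TG heart (10912 to 12839), as the labels say. No replicates of 1 group agreed within sampling noise. NTG 3 stood apart, with a chi-square of 17.5 to 19.3 per gene against the other NTG libraries, where the remaining NTG pairs gave 3.04 to 8.12 and the mNrf2-TG pairs 6.92 or more. Calls of the 10 genes that change without NTG 3 are therefore given both ways. The nominal cell type was checked on markers. All 10 cardiomyocyte markers were present, at a summed level of 813595 to 862308 in NTG and 698713 to 721947 in mNrf2-TG.

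Both ferritin chains, the iron exporter and 1 of the 2 biliverdin reductases rose in the mNrf2-TG hearts. Of the 10 members, 4 rose and 0 fell at an adjusted p under 0.05 in edgeR's quasi-likelihood test. These were Blvrb, Fth1, Ftl1 and Slc40a1, with Blvrb rising 4.94-fold and the other 3 by 31.7% to 57.7%. The remaining 6 members, Hmox1, Hmox2, Blvra, Tfrc, Fech and Alas1, did not pass. Over all genes tested, 17.2% passed in either direction, 8.48% were higher and 8.73% were lower in mNrf2-TG. The 10 members had a median Log2FC of 0.38, beside 0.0012 for all genes. At an unadjusted p under 0.05 with a fold above 2, 1 member (Blvrb) passed, where 5.65% of all genes did. The normalized counts of the groups did not overlap for 5 members, beside 29.7% of all genes. In these bulk samples fewer cells of a type and less RNA per cell cannot be told apart.

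**Figure D1:**
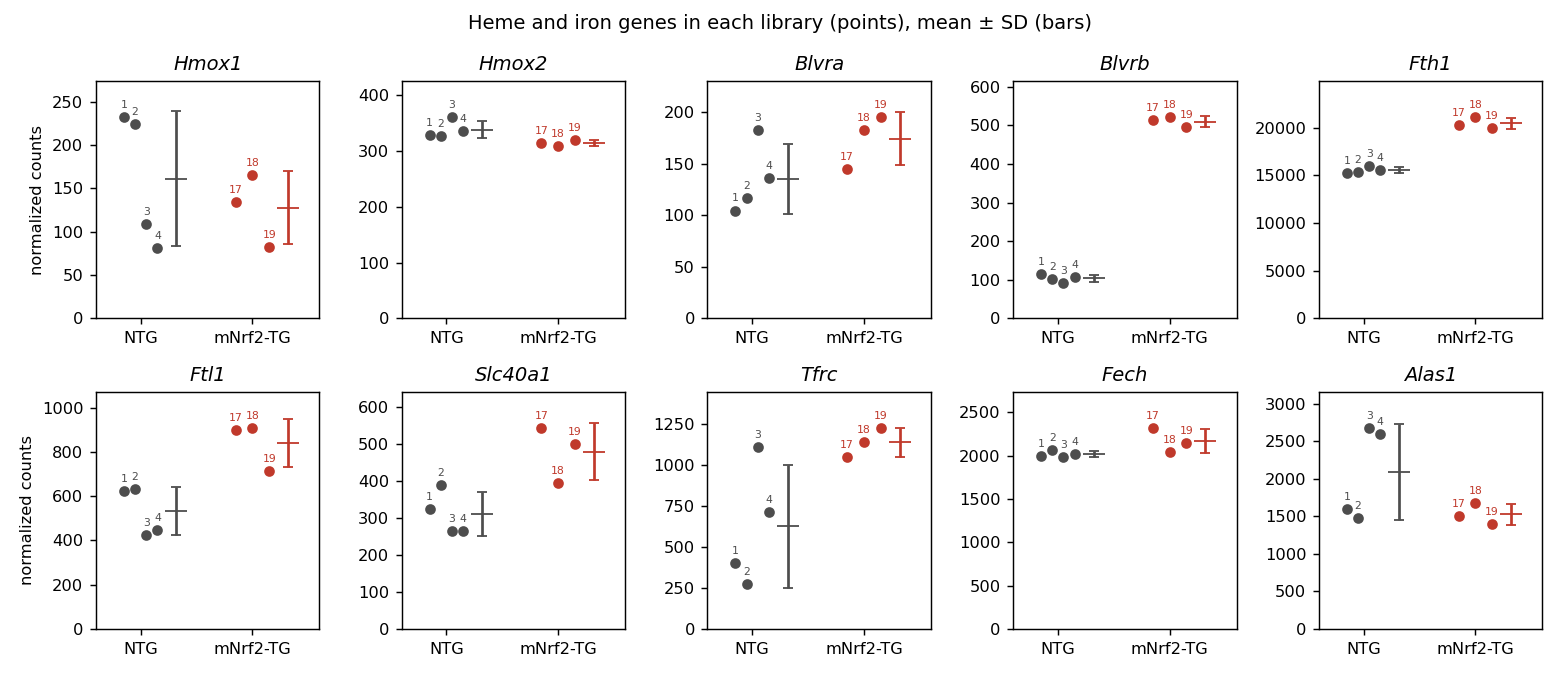
Normalized counts (vertical axes, from 0, a scale for each gene) of the 10 genes in each NTG (grey) and mNrf2-TG (red) library, numbered by library, with the group mean ± SD beside the points. Blvrb, Fth1, Ftl1 and Slc40a1 lie higher in every mNrf2-TG library than in any NTG library, while the NTG points of Hmox1, Tfrc and Alas1 spread widely.

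Neither heme oxygenase passed the test. Hmox1 (chromosome 8, 75093621 to 75100589, plus strand), the inducible enzyme and a textbook target of Nrf2, had 232.2, 224.1, 108.3 and 80.7 normalized counts in NTG 1 to NTG 4, and 134.5, 165.6 and 82.6 in mNrf2-TG 17 to 19. All 3 transgenic values lay inside the range of the NTG hearts, whose upper pair (NTG 1 and NTG 2) was well above the lower pair (NTG 3 and NTG 4). The means were 161.3 ± 78.1 (SD, n = 4) and 127.6 ± 41.9 (SD, n = 3), with a Log2FC of −0.34 ± 0.37 (SE) and an adjusted p of 0.565 in edgeR. Leaving out single libraries gave Log2FC values of −0.58 to −0.10, none of which passed. Hmox1 had 81 and 105 raw counts in NTG 4 and NTG 3 and 202 in NTG 1, a spread wider than counting error.

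Hmox2 (chromosome 16, 4726361 to 4766742, plus strand), the constitutive enzyme, was the steadiest of the heme breakdown genes. It had 329.9, 327.7, 361.0 and 336.6 normalized counts in NTG and 315.3, 309.4 and 319.6 in mNrf2-TG. The transgenic values were all a little below the NTG values, but the difference did not pass (Log2FC −0.11 ± 0.07 (SE), adjusted p = 0.361 in edgeR), and with library totals alone as the scaling the groups overlapped. Hmox2 overlaps Cdip1 on the opposite strand over 16395 bases, exons included, and 41.9% of its 50-base stretches also occur in transcripts of other genes. The use of strand in counting is not given in the sources used here, and the counts of Hmox2 may include reads of Cdip1. The ratio of Hmox1 to Hmox2 in raw counts, not corrected for length, was 0.704, 0.684, 0.301 and 0.241 in NTG and 0.428, 0.536 and 0.260 in mNrf2-TG. These ratios overlapped, with a difference of −0.15 on the log2 scale (exact two-sided permutation p = 0.857, adjusted p = 0.857 over the 4 ratios compared). With 1 library left out the difference ran from −0.43 without NTG 4 to 0.15 without mNrf2-TG 19, so its sign was not settled.

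The biliverdin reductases differed from each other. Blvrb (chromosome 7, 27447978 to 27466144, plus strand), which also acts as a flavin reductase, had 113.8, 100.8, 91.8 and 106.6 normalized counts in NTG and 513.3, 521.3 and 495.7 in mNrf2-TG. The groups were far apart and each was tight. The means were 103.2 ± 9.30 (SD, n = 4) and 510.1 ± 13.1 (SD, n = 3), which is a Log2FC of 2.31 ± 0.09 (SE) with an adjusted p of 2.29e-07 in edgeR. Without each library in turn the Log2FC stayed between 2.25 and 2.36. It was 1.31 on the authors' rlog values, a scale that shrinks differences at low counts, and Blvrb passed under all 15 alternatives tried. None of its 50-base stretches occur in another annotated gene.

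Blvra (chromosome 2, 127070665 to 127097084, plus strand), the main biliverdin reductase of adult tissue, had 104.6, 117.0, 182.6 and 136.4 normalized counts in NTG and 145.3, 182.3 and 195.2 in mNrf2-TG. The groups overlapped because NTG 3 reached the level of mNrf2-TG 18. The Log2FC was 0.37 ± 0.18 (SE) with an adjusted p of 0.198 in edgeR. Without NTG 3 it was 0.55 with an adjusted p of 0.0250. In each heart the ratio of Blvrb to Blvra was 1.09, 0.862, 0.504 and 0.782 in NTG, and 3.52, 2.85 and 2.54 in mNrf2-TG. Every transgenic ratio was above every NTG ratio. Per kilobase of exons, the level of Blvrb was 4.38 to 5.43 in NTG, below that of Blvra at 5.68 to 9.91, and 23.7 to 24.9 in mNrf2-TG, above that of Blvra at 7.89 to 10.6. With the longest transcript as the length, the NTG means were 9.12 for Blvrb and 12.3 for Blvra. The ratio was 3.78-fold higher in mNrf2-TG, a log2 difference of 1.92 (exact two-sided permutation p = 0.0286, the smallest that 35 assignments allow, and adjusted p = 0.114 over the 4 ratios).

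RefSeq promoter windows of 250 bases before to 50 after a start site (GRCm38.p6) were searched, because Nrf2 binds such sites, for the core of the antioxidant response element, TGACNNNGC, and for TGACTCA, each on both strands. Windows were at hand for 7 of the 10 members, 13 windows in all for Hmox2, Blvra, Blvrb, Fth1, Ftl1, Tfrc and Alas1. The core occurred in 1 of them, that of Blvra, and in 12.39% of all 32851 windows, and TGACTCA was in none of the 13 and in 5.2% of all windows. The match and its surroundings are given with the core in capitals. The core reads on the opposite strand, and the first base of the match as printed lies at −49 relative to the start.
Blvra, promoter, chr2:127070598-127070626, plus strand: cacgggaattGCTCGGTCAaggctccgcc
No match says only that the letters are not in this window, and Nrf2 binding was not measured.

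Ferritin mRNA was higher in every mNrf2-TG heart. Fth1 (chromosome 19, 9980598 to 9985098, plus strand), the chain that oxidises iron, had 15288, 15318, 16005 and 15568 normalized counts in NTG and 20295, 21118 and 20027 in mNrf2-TG. The groups did not overlap and the spread within each was small. The means were 15545 ± 331.5 (SD, n = 4) and 20480 ± 568.5 (SD, n = 3), a Log2FC of 0.40 ± 0.06 (SE) with an adjusted p of 0.00165 in edgeR, and the call held under all 15 alternatives. It was the smallest fold among the 4 members that passed.

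Ftl1 (chromosome 7, 45457944 to 45459884, minus strand), the chain that helps the iron core to form, had 623.1, 632.8, 426.0 and 449.1 normalized counts in NTG and 899.7, 908.6 and 713.6 in mNrf2-TG. The lowest transgenic heart was still above the highest NTG heart, and both groups fell into a higher and a lower part. The means were 532.7 ± 110 (SD, n = 4) and 840.6 ± 110 (SD, n = 3), a Log2FC of 0.66 ± 0.15 (SE) with an adjusted p of 0.0175 in edgeR. The call was lost without mNrf2-TG 17 (Log2FC 0.61, adjusted p = 0.0696) and without mNrf2-TG 18 (Log2FC 0.60, adjusted p = 0.0651). Of the 50-base stretches of Ftl1, 86.2% also occur in 17 other annotated genes, 8 of them pseudogenes and none of them listed in the count table, so the counts of Ftl1 depend on how reads with several equal positions were treated. The ratio of Ftl1 to Fth1 was 0.0408, 0.0413, 0.0267 and 0.0289 in NTG and 0.0444, 0.0431 and 0.0357 in mNrf2-TG, and it overlapped (log2 difference 0.28, exact two-sided permutation p = 0.286, adjusted p = 0.419). The difference was 0.16 without NTG 3.

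Slc40a1 (chromosome 1, 45908068 to 45926523, minus strand), ferroportin, the iron exporter, had 325.3, 388.9, 265.1 and 264.9 normalized counts in NTG and 544.5, 394.2 and 501.2 in mNrf2-TG. The groups were apart by a narrow margin, between NTG 2 and mNrf2-TG 18. The means were 311.0 ± 59.2 (SD, n = 4) and 480.0 ± 77.4 (SD, n = 3), a Log2FC of 0.62 ± 0.15 (SE) with an adjusted p of 0.0211 in edgeR. The call was lost without mNrf2-TG 17 (Log2FC 0.53, adjusted p = 0.0899) and without mNrf2-TG 19 (Log2FC 0.59, adjusted p = 0.0715).

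Macrophages, which recycle red cell heme, are known for high ferroportin, Hmox1 and ferritin, and the markers of these cells were therefore read beside them. Of 15 macrophage markers tested, 8 rose and 0 fell, with a median Log2FC of 0.79 and summed normalized counts between 2043 and 3019 in NTG and between 3238 and 4552 in mNrf2-TG. The highest macrophage sum was in mNrf2-TG 18, which among the transgenic hearts had the highest Ftl1, Fth1, Blvrb and Hmox1 and the lowest Slc40a1. The highest NTG sum was in NTG 3, which among the NTG hearts had the highest Fth1 and the lowest Ftl1 and Blvrb. Of 8 fibroblast markers 6 rose and 0 fell, with a summed level of 9127 to 11706 against 13100 to 14056. None of the macrophage or fibroblast markers tested was at 0 in a library. Of the 10 cardiomyocyte markers 0 rose and 4 fell, and of 8 endothelial markers 1 rose and 3 fell. The part of these cell types in the differences of Slc40a1, Ftl1, Fth1 and Blvrb was not tested.

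Tfrc (chromosome 16, 32608920 to 32632794, plus strand), the transferrin receptor, had 400.0, 273.6, 1109.8 and 714.0 normalized counts in NTG and 1049.3, 1136.2 and 1224.7 in mNrf2-TG. The transgenic hearts were alike, while the NTG hearts covered a wide range whose top, NTG 3, reached above mNrf2-TG 17. The means were 624.4 ± 373 (SD, n = 4) and 1137 ± 87.7 (SD, n = 3), a Log2FC of 0.87 ± 0.37 (SE) with an adjusted p of 0.135 in edgeR. Without NTG 3 the Log2FC was 1.30 with an adjusted p of 0.00673. With 1 library of 7 deciding the call, a higher Tfrc in mNrf2-TG was not shown. The ratio of Tfrc to Fth1 overlapped between groups (log2 difference 0.67, exact two-sided permutation p = 0.314, adjusted p = 0.419). The difference was 0.34 without NTG 2 and 0.99 without NTG 3.

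Receptor and storage genes were also set side by side in each heart. Among the NTG hearts, the pair with less Tfrc (NTG 1 and NTG 2) had more Ftl1, Slc40a1 and Hmox1 than the pair with more Tfrc (NTG 3 and NTG 4), while Fth1 was slightly lower in NTG 1 and NTG 2 than in NTG 3 and NTG 4. The mNrf2-TG hearts had Tfrc near the level of NTG 3 together with more Ftl1 than any NTG heart. Among them mNrf2-TG 19, with the most Tfrc, had the lowest Ftl1, Hmox1 and Fth1, while Slc40a1 was lowest in mNrf2-TG 18. This is a description of 7 hearts with no test. The labels number the libraries 1 to 4 in NTG and 17 to 19 in mNrf2-TG. They do not say what this number stands for, and they name no batch.

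**Figure D2:**
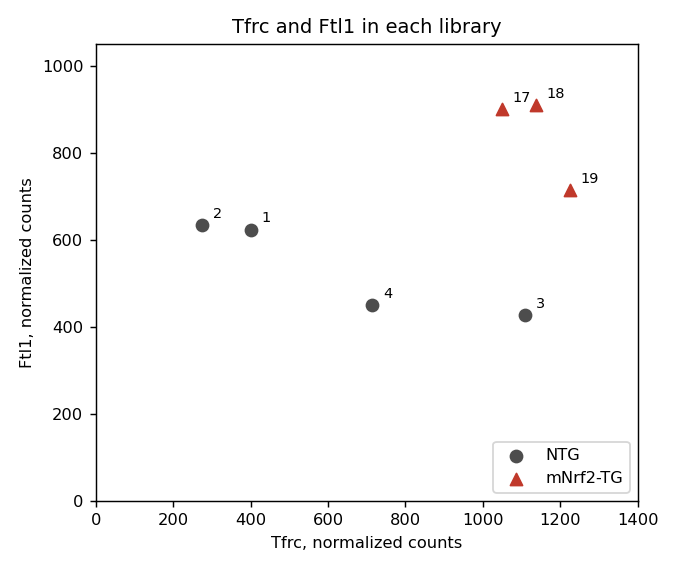
Normalized counts of Tfrc (horizontal axis) against Ftl1 (vertical axis) in the 4 NTG (grey circles) and 3 mNrf2-TG (red triangles) libraries, numbered by library. NTG libraries with more Tfrc have less Ftl1, whereas the mNrf2-TG libraries combine 1049.3 to 1224.7 counts of Tfrc with 713.6 to 908.6 of Ftl1.

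The first and the last enzyme of heme synthesis did not pass. Alas1 (chromosome 9, 106233455 to 106248654, minus strand), the rate-limiting enzyme outside red cells, had 1604.8, 1483.5, 2680.5 and 2597.2 normalized counts in NTG and 1503.4, 1680.2 and 1394.5 in mNrf2-TG. The transgenic hearts were at the level of NTG 1 and NTG 2 and below NTG 3 and NTG 4. The means were 2091 ± 635 (SD, n = 4) and 1526 ± 144 (SD, n = 3), a Log2FC of −0.45 ± 0.20 (SE) with an adjusted p of 0.154 in edgeR, and no library left out brought it past the threshold. An antisense gene, 4930500F10Rik, overlaps Alas1 by 695 bases, and 8.6% of its 50-base stretches are shared with it.

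Fech (chromosome 18, 64452914 to 64490251, minus strand), ferrochelatase, which inserts iron into the porphyrin ring, had 1994.5, 2062.3, 1987.5 and 2017.6 normalized counts in NTG and 2320.2, 2044.8 and 2144.4 in mNrf2-TG. Only mNrf2-TG 18 lay within the NTG values, which were close together. The Log2FC was 0.11 ± 0.07 (SE) with an adjusted p of 0.299 in edgeR.

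**Figure D3:**
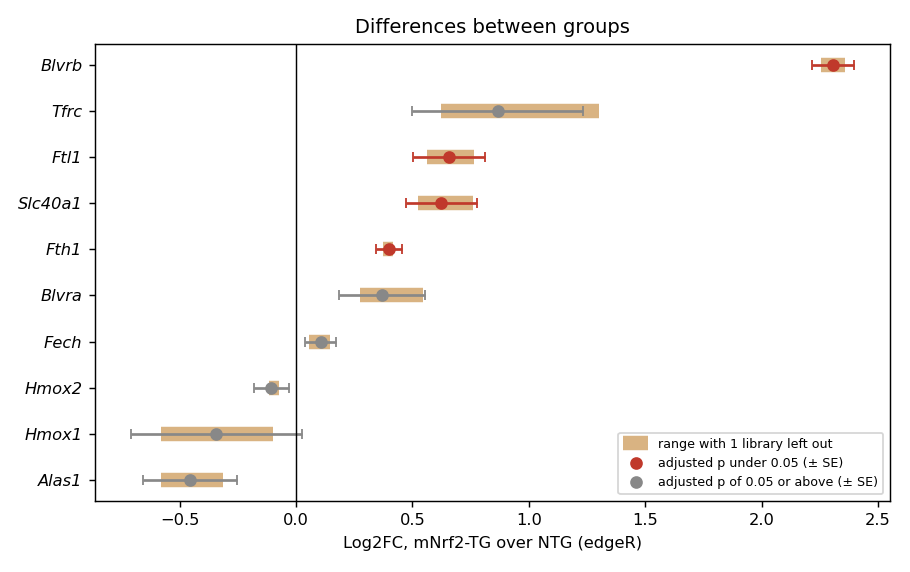
Log2FC of mNrf2-TG over NTG (horizontal axis) for the 10 genes, with SE bars from edgeR, coloured red where the adjusted p was under 0.05, and a tan band for the range when each of the 7 libraries was left out. Blvrb stands at 2.31 with a narrow band, Ftl1 and Slc40a1 near 0.6, Fth1 at 0.40, and the band of Tfrc reaches 1.30.

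Levels between genes were compared per length, as TMM-scaled CPM per kilobase of annotated exons. In NTG hearts Fth1 came first at 595.3 ± 12.7 (SD, n = 4), followed by Ftl1 at 52.8 ± 10.9 and Alas1 at 45.00 ± 13.7, which overlapped each other. Hmox2 at 20.3 ± 0.915, Fech at 19.4 ± 0.324, Tfrc at 13.4 ± 8.01 and Hmox1 at 12.2 ± 5.92 followed. In that run Hmox2 and Fech overlapped, Tfrc spanned both, and Hmox1 overlapped Tfrc. Blvra at 7.34 ± 1.86 overlapped Hmox1, and Blvrb at 4.93 ± 0.444 and Slc40a1 at 4.59 ± 0.873 closed the order and overlapped each other.

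In mNrf2-TG hearts the order was led by Fth1 at 784.3 ± 21.8 (SD, n = 3), Ftl1 at 83.3 ± 10.9 and Alas1 at 32.8 ± 3.10, none of which overlapped. Tfrc at 24.4 ± 1.88 and Blvrb at 24.4 ± 0.625 overlapped each other, Fech at 20.8 ± 1.34 and Hmox2 at 18.9 ± 0.305 came next, and Hmox1 at 9.68 ± 3.18, Blvra at 9.46 ± 1.41 and Slc40a1 at 7.08 ± 1.14 were lowest and overlapped each other. Blvrb thus moved from the ninth to the fifth place, and Slc40a1 was the tenth in both groups. These places rest on the length used. With the longest transcript as the length, Alas1 stood before Ftl1, Fech before Hmox2 and Slc40a1 before Blvrb in NTG. In mNrf2-TG that length put Blvrb at the fourth place with 45.1, before Fech with 43.9 and Tfrc with 30.9, and Slc40a1 with 16.2 before Blvra with 15.9 and Hmox1 with 10.8.

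**Figure D4:**
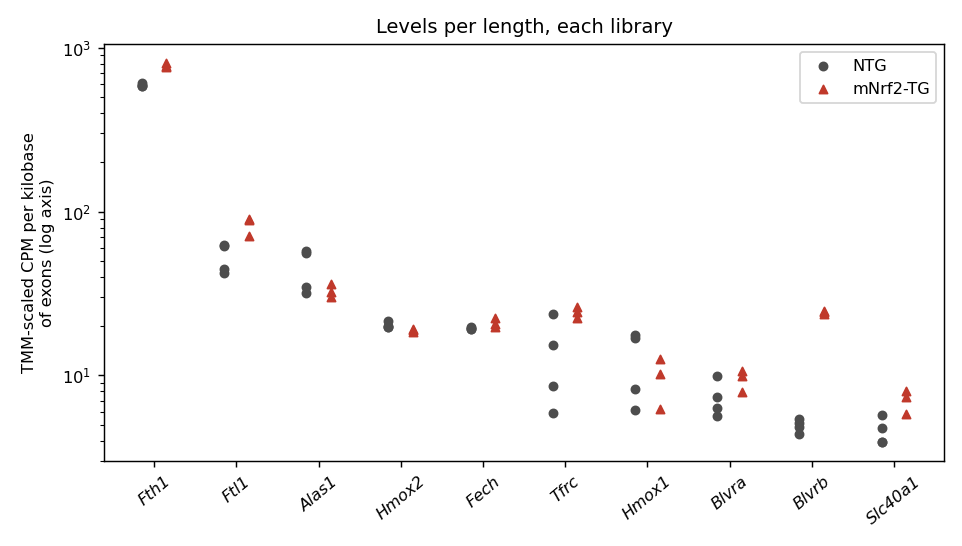
Level of each gene as TMM-scaled CPM per kilobase of exons (vertical log axis) in the NTG (grey circles) and mNrf2-TG (red triangles) libraries, ordered by the NTG mean. Fth1 lies at 585.4 to 808.7 and every other gene below 91, and Blvrb rises from 4.38 to 5.43 in NTG to 23.7 to 24.9 in mNrf2-TG.

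The other genes of heme and iron handling moved in both directions. Of 100 such genes listed, 90 were tested, of which 9 rose, 11 fell and 70 did not pass, with a median Log2FC of 0.02, where 8.48% of all genes rose and 8.73% fell. Without NTG 3, 11 rose and 14 fell, with 2950 of all genes called in place of 2519, and without mNrf2-TG 18, 7 rose and 8 fell, with 1496 called. The groups did not overlap for 37 of the 90, beside 29.7% of all genes. The 9 lists took the steps of the pathway in turn. Values for the genes named are normalized count means of NTG (n = 4) and mNrf2-TG (n = 3), with Log2FC and the adjusted p of edgeR.

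Of 12 other genes of heme synthesis, 0 rose and 1 fell, with a list median Log2FC of 0.07. That gene was Cpox, which makes protoporphyrinogen in mitochondria, with 438.0 ± 124.8 (SD) against 254.3 ± 49.2 normalized counts (Log2FC −0.78, adjusted p = 0.0361). Its groups overlapped through NTG 3, and the call was lost without NTG 1, 2 or 4 or mNrf2-TG 17 or 18, with an adjusted p of 0.0739 to 0.121. Alad, the second enzyme of the pathway, had 282.8, 290.7, 525.0 and 551.7 in NTG and 1001.9, 517.4 and 619.2 in mNrf2-TG (Log2FC 0.79, adjusted p = 0.0816), and it passed without NTG 3 (Log2FC 0.92, adjusted p = 0.0417), while without mNrf2-TG 17 it had a Log2FC of 0.46 (adjusted p = 0.317). Alas2, the red cell form of the first enzyme, had a Log2FC of 0.23 (adjusted p = 0.553).

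None of the 13 heme transport and sensing genes passed with all libraries, and their median Log2FC was 0.11. The mitochondrial porphyrin transporter Abcb6 passed without NTG 3 (adjusted p = 0.0157, from 0.135), and the heme-binding protein Hebp1 and the heme-sensing nuclear receptor Nr1d2 passed without NTG 4 (adjusted p = 0.0400 and 0.0196), 3 genes named after their values were seen. The heme importer Slc48a1 had a Log2FC of 0.06 (adjusted p = 0.643), the exporter Flvcr1 0.11 (adjusted p = 0.740), and Bach1, the heme-binding repressor known to compete with Nrf2 for its sites at Hmox1, 0.41 (adjusted p = 0.152). Bach1 passed only without mNrf2-TG 19 (Log2FC 0.62, adjusted p = 0.0247).

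Of 11 iron uptake and reduction genes 0 rose and 2 fell (median Log2FC −0.19). Steap4, a metalloreductase, had 560.2 ± 107.5 (SD) against 344.7 ± 20.5 normalized counts (Log2FC −0.70, adjusted p = 0.00992). Slc39a14, an importer of iron that is not bound to transferrin, had 906.4 ± 30.1 (SD) against 742.1 ± 41.2 (Log2FC −0.29, adjusted p = 0.0198), a call lost without mNrf2-TG 18 (adjusted p = 0.0571) or without mNrf2-TG 19 (adjusted p = 0.0761). Slc11a2, the divalent metal transporter, had a Log2FC of 0.16 (adjusted p = 0.283).

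The ferroxidases that work beside ferroportin went in opposite directions. Heph, the membrane-bound one, had 28.7, 29.7, 24.8 and 29.9 normalized counts in NTG and 92.5, 78.8 and 75.3 in mNrf2-TG, and it rose 2.89-fold (Log2FC 1.53 ± 0.16 (SE), adjusted p = 0.000326). Cp, the secreted one, had 1118.5, 1136.9, 1088.1 and 1242.8 in NTG and 851.2, 957.9 and 733.6 in mNrf2-TG, and it fell (Log2FC −0.44 ± 0.10 (SE), adjusted p = 0.0135). Neither gene's groups overlapped. These were the 2 calls among 9 genes of ferritin loading, ferritin turnover and export (median Log2FC 0.04), and Ncoa4, the receptor that carries ferritin to autophagy, had a Log2FC of −0.06 (adjusted p = 0.671).

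Of 8 hepcidin axis genes 1 rose and 2 fell (median Log2FC −0.16), and Hamp, the gene of hepcidin, was not analysed here. Hjv, a coreceptor for bone morphogenetic proteins, rose from 2174 ± 140 (SD) to 2857 ± 115.9 normalized counts (adjusted p = 0.00611). Smad6 (Log2FC −0.66, adjusted p = 0.00876) and Id1 (Log2FC −0.61, adjusted p = 0.00931), known targets of bone morphogenetic protein signalling, fell. In the 5 iron sensing genes (median Log2FC −0.10), the iron regulatory proteins Aco1 (Log2FC −0.005, adjusted p = 0.976) and Ireb2 (Log2FC −0.10, adjusted p = 0.401) and the iron sensor Fbxl5 (Log2FC −0.13, adjusted p = 0.251) did not pass. The 1 call there was Skp1 (Log2FC 0.40, adjusted p = 0.00889), a general subunit of ubiquitin ligases.

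Of 19 genes of mitochondrial iron and iron-sulfur cluster assembly 2 rose, 2 fell and 15 did not pass (median Log2FC −0.12). Of the latter, Lyrm4, Isca1 and Hspa9, with adjusted p-values of 0.0551, 0.0527 and 0.0668 and a negative Log2FC, passed without NTG 3 and were named after their values were seen. The cysteine desulfurase Nfs1 (Log2FC 0.44, adjusted p = 0.00611) and the scaffold Iscu (Log2FC 0.42, adjusted p = 0.0187) rose, and the iron importer Slc25a28 (Log2FC −0.55, adjusted p = 0.0117) and the late-acting factor Bola3 (Log2FC −0.45, adjusted p = 0.0112) fell. Iscu did not pass without NTG 1 (adjusted p = 0.0509) or mNrf2-TG 17 (adjusted p = 0.0517), nor Bola3 without mNrf2-TG 19 (adjusted p = 0.0501).

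Downstream of the biliverdin reductases, 2 of 6 genes of bilirubin and biliverdin handling rose and 0 fell. Gsta1, a glutathione transferase of a class known to bind bilirubin, rose from 43.8 ± 8.03 (SD) to 10130 ± 613.8 normalized counts (Log2FC 7.85, adjusted p = 2.98e-10), and reads of its close paralogs may be counted with it. Abcc1, an efflux pump, had a Log2FC of 0.44 (adjusted p = 0.0150), and it did not pass without mNrf2-TG 19 (adjusted p = 0.0566). The list's median Log2FC was 0.40.

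Of 7 genes of myocyte heme proteins and heme A synthesis 2 rose and 3 fell (median Log2FC −0.20). Cycs, cytochrome c (Log2FC −0.39, adjusted p = 0.00491), Cox10, which farnesylates heme (Log2FC −0.44, adjusted p = 0.0107), and Mb, myoglobin (Log2FC −0.24, adjusted p = 0.0369), fell. Mb did not pass without NTG 1, 2 or 4 or mNrf2-TG 18 or 19 (adjusted p of 0.0822 to 0.116) nor with library totals alone as the scaling (adjusted p = 0.0760), and its fall was close to the median of the cardiomyocyte markers, −0.24. Cygb, cytoglobin of fibroblast-like cells (Log2FC 0.33, adjusted p = 0.0188), and Cox15, the next enzyme after Cox10 (Log2FC 0.29, adjusted p = 0.0284), rose. Cygb did not pass without mNrf2-TG 18 (adjusted p = 0.0748), and Cox15 did not without NTG 2 or 4 or mNrf2-TG 17, 18 or 19 (adjusted p of 0.0545 to 0.0910).

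**Figure D5:**
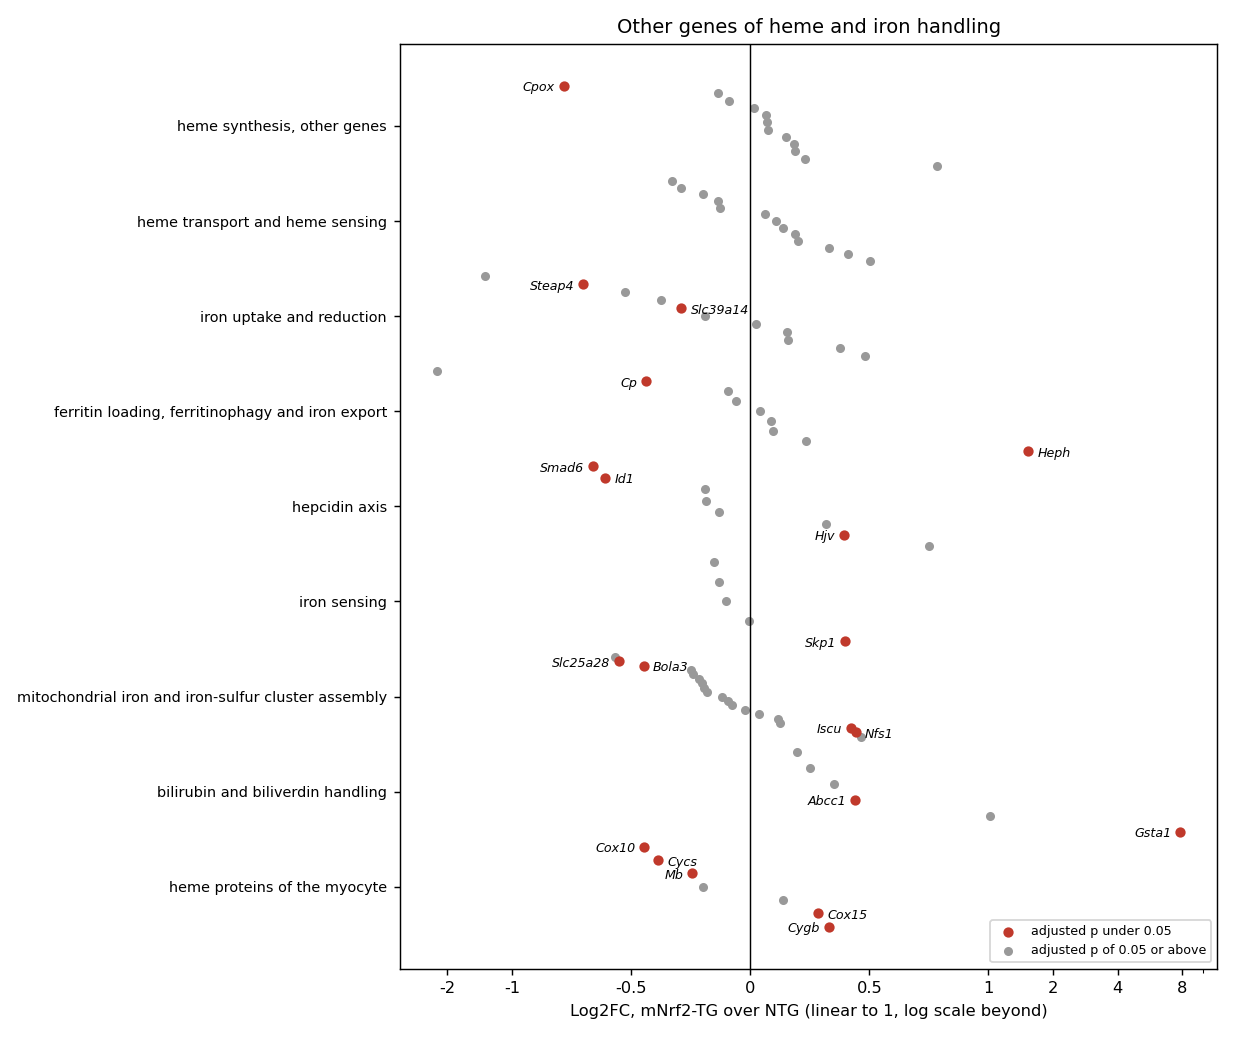
Log2FC of mNrf2-TG over NTG (horizontal axis, linear up to 1 and on a log scale beyond) for each tested gene of 9 lists of heme and iron handling (rows), with genes at an adjusted p under 0.05 in red and named. Called genes lie on both sides of 0, 9 higher and 11 lower, and Gsta1 at 7.85 and Heph at 1.53 are the highest among them.

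Blood in the tissue was read from red cell markers. The summed level of the markers tested overlapped between groups, from 2569 to 4041 normalized counts for NTG and from 1860 to 3945 for mNrf2-TG. The defining membrane genes Slc4a1 and Epb42 were at or near 0 in every library, with at most 2.99 normalized counts. The lowest globin level was in mNrf2-TG 17, which had the highest Fech and Alad. The part of blood in these values was not tested.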

How the data were processed

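Per the labels and the methods, poly(A) RNA of each heart was made into a stranded library and sequenced as single reads, and the authors aligned the reads with Novoalign 2.08.01 to mm10 (GRCm38), while hg19 is also named once. The counting program is not given in the sources used here. The deposited raw counts per gene are not normalized. The authors also deposited rlog values (regularized log2 values from DESeq2 1.32.0), and a comparison table with mean signal, log2 fold change, test score and p-value columns. Those columns of the comparison table, and adjusted p-value columns beside the counts and rlog values, were not used. The rlog values entered only as an alternative, tested with limma. Of 14665 entries, 24 repeats of 1 Entrez gene were removed.

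The raw counts were tested with edgeR 4.0.16 (R 4.3.3; TMM factors, glmQLFit and glmQLFTest, no covariate), with Benjamini-Hochberg adjustment over 14637 genes with a summed count above 1. The SE was the Log2FC divided by the square root of F. DESeq2 1.42.0, limma 3.58.1, other filters and scalings, and each library left out were alternatives. Ratios were compared per library, with 0.5 added to raw counts before the log2, by exact permutation (scipy 1.17.1). The fit was tested on simulated data, the outcome of which is not reported here. Positions and lengths are from GENCODE M21, promoter windows from RefSeq. Proteins were not compared. Named genes were the 10 members, 12 pathway genes listed by name, and in each list up to 5 genes of smallest p among those past the threshold, of which some are not reported here. The members and lists were chosen with earlier results of these data known. Each library is taken as 1 mouse, and p-values judge the difference between groups against the spread between these libraries.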

Additional observations from a re-analysis of the deposited data

Results flagged for a closer look

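In the NTG group, 45 genes and ratios were examined for a library far from the other 3, and chance flags about 1 in 20 groups. This found 2, and neither concerned one of the 10 genes. Aco1 had 303.5 normalized counts in NTG 1 and 332.1 to 337.6 in the others, a gap of 0.839 of the group's range, just past Dixon's 95% limit for 4 samples. Smad6 had 101.1 normalized counts in NTG 3 and 117.0 to 119.5 in the others, a gap of 0.865 of the range.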

How the results depend on the processing

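The same count of 4 members passed under all 8 alternative tests, scalings and filters. Leaving out single libraries, the count ran from 2 to 6, all of them higher (2 without mNrf2-TG 17, 3 without mNrf2-TG 18 or 19, 6 without NTG 3), while the count over all genes ran from 1373 to 2950 (1373 without mNrf2-TG 17, 1496 without mNrf2-TG 18, 1597 without NTG 2, against 2519). At an unadjusted p under 0.05 with a fold above 2, 827 genes became 539 with at least 10 counts in every library of 1 group, where fewer genes are tested, and 57 with limma on the rlog values, which shrink differences. The count of members by that rule was 1 to 2, with 2 for limma-voom and for NTG 3 left out. The ratio of Blvrb to Blvra kept a log2 difference of 1.71 to 2.077 with 1 library left out, with exact permutation p-values of 0.0667 to 0.100, the smallest possible with 6 libraries. Over the 41 genes named by rule, 584 alternatives left the gene on the same side of the threshold, 27 lost the call and 4 gained one, and none turned a called direction. Other listed genes gained calls too, such as Isca1 under 6 alternatives. No paired analysis was possible because the groups share no replicate number. Hmox1 ran from 80.7 to 232.2 normalized counts among NTG hearts, and the smallest change of it that the test could detect was not estimated.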
